A study of Mus musculus with 15 samples.

Results

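Medulloblastoma cells from Ptch1 heterozygous mice (MB) were compared with granule neuron precursors taken from the cerebellum on the embryonic day that the group name E15.5 gives. The 6 libraries, 3 in each group, were chosen by their titles from the 15 in the series. The E15.5 cells carried the genotype label Math1-GFP, a reporter named after the older symbol of Atoh1, and the tumour libraries had no age label. The other 9 libraries, 3 each from wild-type precursors at postnatal days 1, 7 and 14 (P1, P7 and P14), served as a reference. They were used to find what the tumour and the embryo had in common and what set each apart. They also entered the fit, and so helped set the spread behind every SE, adjusted p and interval of the main comparison. All cells were purified on Percoll gradients, and whether the reporter was used for sorting is not given in the sources used here. Age, genotype and tumour state differed together between MB and E15.5 and cannot be told apart. Nothing in the labels says that the libraries of a group came from separate animals, so p-values measure the spread between these libraries. The comparison asks what the tumour shares with the embryonic population and what it lacks.

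Granule neuron precursors arise from the rhombic lip of the embryonic hindbrain, migrate over the surface of the cerebellum and divide there after birth before they become granule neurons. Sonic hedgehog, secreted by Purkinje cells, drives that division by relieving the block that the receptor Ptch1 places on Smo, which lets the Gli transcription factors switch on their targets. Loss of Ptch1 function leaves this pathway active without the ligand, and mice with 1 mutant Ptch1 allele can develop medulloblastoma. The rhombic lip also gives rise to the neurons of the deep cerebellar nuclei and to unipolar brush cells, whereas Purkinje cells and GABAergic interneurons come from the neighbouring ventricular zone.

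Levels are CPM, counts scaled by each library's TMM-adjusted total, and changes are log2 differences fitted by edgeR, MB minus E15.5, with their standard error (SE). A gene was called at an adjusted p under 0.05 by the quasi-likelihood test over all genes. Only autosomal genes are reported, 14446 of which passed the filter on low counts. The 6 libraries held 12597472 (E15.5 replicate 2) to 43443132 (E15.5 replicate 3) counts in genes. Within MB, replicate 1 stood apart, with a root mean square difference in log2 CPM of 0.983 and 1.02 from the other 2 tumours, which differed from each other by 0.476. Within E15.5, the pairs differed by 0.535 to 0.798, replicate 3 being the one farther from the other 2. The deposited gene counts also fell into 2 sets by the gene Tsnax, whose gene count was at most 0.273% or at least 92.4% of its transcript count. MB replicate 1 and E15.5 replicates 1 and 3 were in one set and the other 3 libraries in the other. These are called counting sets here, and the counting settings behind them are not given in the sources used here. In these bulk samples, fewer cells of a type and less RNA per cell cannot be told apart.

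The tumour libraries lay farther from E15.5 than from P7. Between MB and E15.5 libraries the root mean square difference was 1.72 to 1.98, against 1.39 to 1.63 between MB and P7 and 1.61 to 1.81 between MB and P14. Of the 14446 genes, 3774 were higher in MB (26.1%) and 3470 were lower (24.0%). At least 2-fold changes accounted for 2476 of the former (17.1%) and 2484 of the latter (17.2%). A change was bounded within 2-fold, by a 95% interval lying wholly between a halving and a doubling of the E15.5 level, for 4813 genes (33.3%). The median log2 change over all genes was 0.03. MB replicate 1 was the only tumour library in its counting set, and E15.5 replicate 2 was the only embryonic library in the other set. Calls and adjusted p values inside a set therefore hold no spread between libraries of the group with a single library. They are given as description only. Over all genes, the median log2 change was -0.08 inside the set of MB replicate 1 and 0.10 inside the other.

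**Figure D1:**
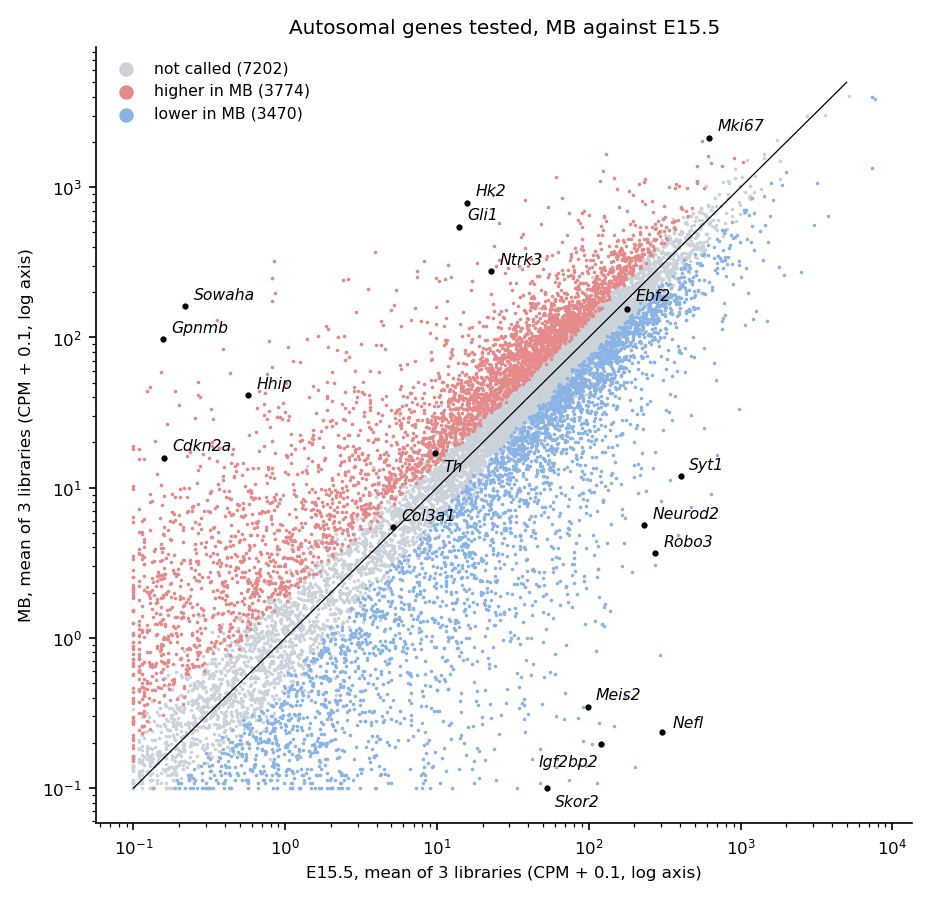
Mean level of each of the 14446 autosomal genes tested at E15.5 (x axis) and in MB (y axis), as CPM plus 0.1 on log axes, 3 libraries in each mean. Red points are the 3774 genes called higher in MB, blue points the 3470 called lower and grey points the rest, and both colours reach far from the diagonal on which equal means lie.

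Ptch1, the targeted gene, was measured first. Its level was 105, 129 and 53.9 CPM in E15.5 replicates 1 to 3 and 202, 341 and 349 CPM in the MB libraries, so every tumour library lay above every embryonic one. The log2 change was 1.63 (SE 0.28, adjusted p = 2.68e-04). Counts cover the whole gene (chr13:63612841-63666828, mm9, minus strand), which part of it the mutant allele changes is not given in the sources used here, and the count therefore does not check the genotype label. Ptch1 is itself a target of the pathway it restrains.

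The Sonic hedgehog pathway was higher in the tumour from its receptors to its targets, with a few members lower. Of the 18 genes listed, all tested, 13 were higher in MB and 4 lower, with a median log2 change of 1.51, against 26.1% and 24.0% of all genes. Gli1, the transcription factor that serves as the usual readout of pathway activity (chr10:126766945-126778645, mm9), stood at 16.0, 15.1 and 10.2 CPM at E15.5. In the tumours it stood at 208, 781 and 651 CPM, the first of these being the replicate that stood apart, and it rose by 5.32 (SE 0.37, adjusted p = 1.94e-07). Hhip, a decoy receptor for the ligand and a target of the pathway, rose from 0.436, 0.334 and 0.630 CPM to 17.5, 63.2 and 43.7 CPM, a log2 change of 6.37 (SE 0.42, adjusted p = 4.24e-08). Ptch1, Gli1 and Hhip were thus lowest among the tumours in the same library, MB replicate 1, and still did not overlap with the embryo.

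Other targets and carriers of the signal moved the same way. Sfrp1, a secreted Wnt antagonist, stood at 143, 148 and 101 CPM at E15.5 and at 1771, 1526 and 1697 CPM in MB (log2 change 3.67, SE 0.20, adjusted p = 8.55e-09). The cyclin Ccnd1 rose by 2.36 (SE 0.34), Gli2 by 2.10 (SE 0.32), the ligand coreceptor Boc by 2.07 (SE 0.19) and Mycn, the proto-oncogene induced by the pathway in precursors, by 1.23 (SE 0.22). The signal transducer Smo rose by 0.96 (SE 0.21). Of the 18 genes, 6 (Gli1, Gli2, Sfrp1, Boc, Mycn and Kif7) had all MB libraries above all 12 others, a pattern that 1246 of all genes tested showed (8.63%).

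The members that were lower were not of 1 kind. Cdon, another ligand coreceptor, stood at 37.3, 33.2 and 24.97 CPM at E15.5 and at 1.19, 0.562 and 1.08 CPM in MB, a log2 change of -5.10 (SE 0.33, adjusted p = 5.83e-08). Boc and Cdon, which bind the same ligand, thus differed in opposite directions. Gli3, which acts mainly as the pathway's repressor, changed by -3.21 (SE 0.40), and by -3.96 without MB replicate 1. Gpr161, a receptor that holds the pathway off, changed by -0.99 (SE 0.25). Shh itself was near the detection limit in these cells, with 39 counts over the 3 E15.5 libraries and 5 over the MB libraries. Gas1, a coreceptor, was not called (0.28, SE 0.36). It was called higher without MB replicate 1 (0.68, adjusted p = 0.0178) and lower inside the counting set of MB replicate 1 (-1.17, adjusted p = 0.00737). In that set Smo (0.58, adjusted p = 0.0975), Kif7 (0.77, adjusted p = 0.0998) and Gpr161 (-0.53, adjusted p = 0.147) were not called, and Shh was called in neither set.

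**Figure D2:**
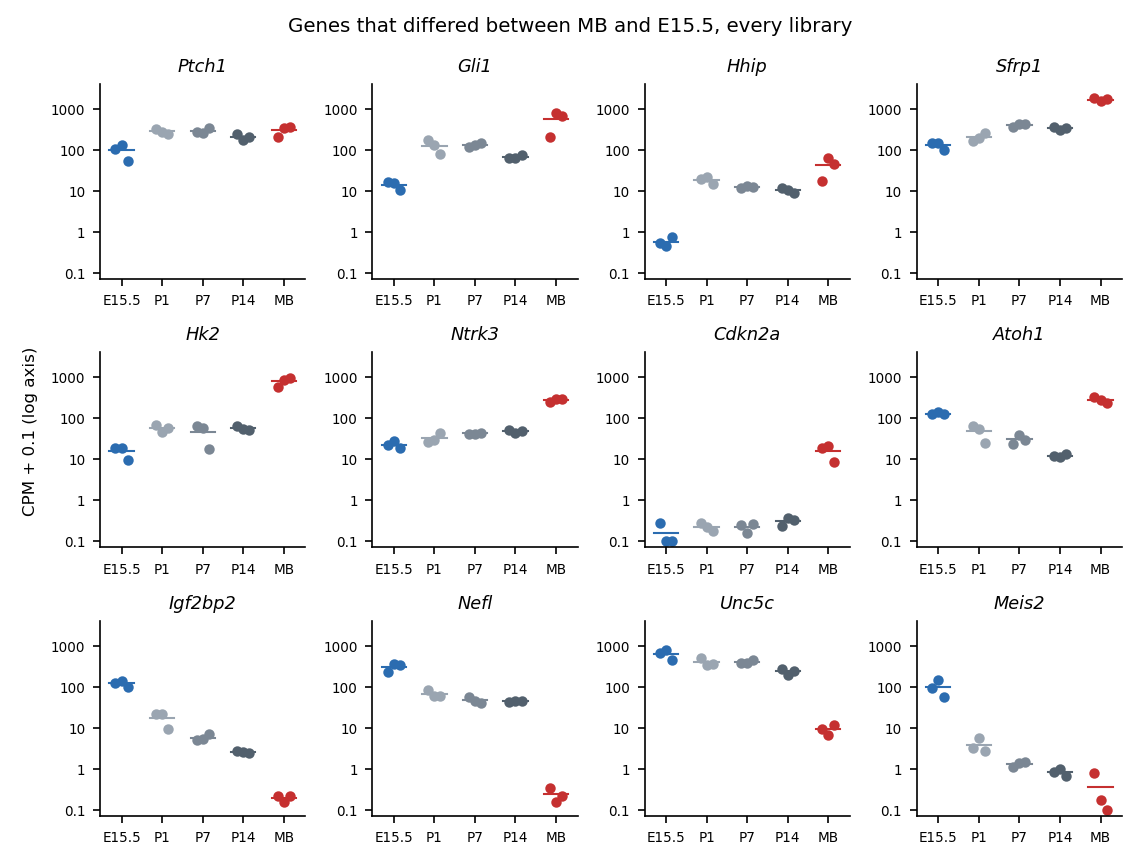
Level of 12 genes in each of the 15 libraries, as CPM plus 0.1 on a log axis, by group, with a line at the group mean. Gli1, Hhip, Sfrp1, Hk2, Ntrk3 and Cdkn2a lie higher in MB than at E15.5 in every library, and Igf2bp2, Nefl, Unc5c and Meis2 lie lower in every MB library.

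Most cell cycle genes were higher in MB. Of 30 genes listed, 27 were tested, and Aurka, Pcna and Mcm4 were not analysed here. Of the 27, 23 were higher and 0 lower, beside 26.1% and 24.0% of all genes, with a median log2 change of 1.01 and a highest of 2.14. Leaving out 1 library gave 20 to 23 higher and 0 lower. The median was 0.89 inside the counting set of MB replicate 1 and 1.17 inside the other. Of the called genes, E2f1 (-0.34) and Plk1 (-0.007) did not rise inside the set of MB replicate 1. Mki67, whose protein marks dividing cells, stood at 708, 813 and 339 CPM at E15.5 and at 2790.3, 2104 and 1537 CPM in MB (log2 change 1.79, SE 0.31, adjusted p = 2.67e-04). Inside the counting set of MB replicates 2 and 3 and E15.5 replicate 2, Mki67 was not called (1.17, adjusted p = 0.0556). Foxm1, a transcription factor of the G2 and M phases, had the largest change on the list, from 99.8, 105 and 60.2 CPM to 319, 451 and 395 CPM (2.14, SE 0.25, adjusted p = 8.25e-06).

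Genes that license replication origins moved together within this list. Mcm2, Mcm3, Mcm5, Mcm6 and Mcm7, subunits of the replicative helicase, rose by 0.89 to 1.32, and all 5 had every MB library above the other 12. Inside the counting set of MB replicate 1, Mcm5 was not called (0.71, adjusted p = 0.0509). Cdt1, which loads that helicase, stood at 46.5, 40.8 and 53.3 CPM at E15.5 and at 102, 168 and 164 CPM in MB (1.63, SE 0.24). The change was not general, since Ccne1, the cyclin of S phase entry, and Tyms, which makes thymidylate, were both bounded within 2-fold (-0.03, interval -0.49 to 0.44, and 0.00, interval -0.54 to 0.55).

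The promoters of this group are shown because its members moved together and because E2F factors, the main activators of S phase genes, are known to bind such promoters. Windows from 250 bases before to 50 bases after the start site were taken from RefSeq (GRCm38.p6). They were searched on both strands for the E2F-type sequences TTTCCCGC, TTTCGCGC, TTTGCCGC and TTTGGCGC, which can overlap each other. A match was present in 7 of the 25 cell cycle genes with a window (Cdc6, Cdk1, Cdt1, Mcm3, Mcm5, Mcm6 and Mcm7) and in 2.27% of the 32851 windows in the table. The 250 bases before the start site are given for the 2 genes of this group with the most matches there, with every match in capitals, 2 of them overlapping in each gene. Mcm5 lies at chr8:75109259-75109508 on the plus strand and Mcm6 at chr1:128359706-128359955 on the minus strand of GRCm38.p6.
Mcm5: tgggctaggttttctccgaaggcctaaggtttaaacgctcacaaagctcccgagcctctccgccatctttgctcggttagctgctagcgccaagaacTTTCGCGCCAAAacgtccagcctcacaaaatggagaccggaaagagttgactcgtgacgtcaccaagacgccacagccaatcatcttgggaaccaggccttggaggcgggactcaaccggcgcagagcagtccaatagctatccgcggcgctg
Mcm6: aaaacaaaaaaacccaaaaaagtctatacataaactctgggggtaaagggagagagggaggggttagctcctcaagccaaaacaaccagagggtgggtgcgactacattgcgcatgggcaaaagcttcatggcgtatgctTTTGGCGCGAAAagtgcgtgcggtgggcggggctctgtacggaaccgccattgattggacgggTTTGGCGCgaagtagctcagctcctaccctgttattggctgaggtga
In the Mcm5 run the matches sit at 153 and 149 bases before the start site, and in Mcm6 at 110, 106 and 47 bases. The levels beside these promoters were 187, 179 and 247 CPM at E15.5 against 357, 432 and 346 CPM in MB for Mcm5, and 260.4, 253 and 349 CPM against 611, 600.5 and 574 CPM for Mcm6. The GLI-type sequence GACCACCCA, searched the same way, was in none of the windows of the 11 hedgehog pathway genes that had one and in 0.253% of all windows. A match is a description of letters and not of binding.

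Several genes whose products halt the cell cycle were also higher in MB. Of 25 p53 targets and inhibitors of cyclin-dependent kinases, 24 were tested, with a median of 0.67. Of these, 11 were higher and 2 lower, beside 26.1% and 24.0% of all genes. Cdkn2a, which encodes p16 and p19Arf (chr4:88920377-88928096, mm9), had 4 counts in all at E15.5 (0.174, 0 and 0 CPM) and stood at 18.4, 20.3 and 8.49 CPM in MB. Its scaled count was 302 times the embryonic one (exact 95% counting interval 118 to 1111), and in no postnatal group did its mean pass 0.213 CPM. Cdkn2c rose by 3.32 (SE 0.20), Cdkn1a, the p21 gene, by 2.83 (SE 0.25) and Cdkn1b, the p27 gene that accumulates as precursors leave the cycle, by 1.85 (SE 0.18), each with no overlap. Cdkn2b, which lies beside Cdkn2a, rose by 4.71 (SE 0.57). Cdkn1c, an imprinted inhibitor, went the other way, from 287, 157 and 349 CPM to 14.4, 12.4 and 13.7 CPM (-4.29, SE 0.28).

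Targets of p53 were higher in part. Beside Cdkn1a, the genes Mdm2, Sesn2, Phlda3, Btg2, Gtse1 and Fas were called higher, by 0.66 (Mdm2) to 2.12 (Phlda3). Inside the counting set of MB replicate 1, Btg2 was called lower (-1.17, adjusted p = 0.00500) and Sesn2 (0.07, adjusted p = 0.881) and Phlda3 (1.23, adjusted p = 0.135) were not called, and inside the other set Fas was not (1.12, adjusted p = 0.428). Counts of genes lower in this list were 5 and 1 inside these sets. Trp53 itself was not called (0.57, SE 0.28), with 112, 86.4 and 123 CPM at E15.5 and 74.7, 207 and 196 CPM in MB, and its call depended on the libraries. It was called higher without MB replicate 1 (0.91, adjusted p = 6.88e-04) and inside the counting set of MB replicates 2 and 3 (1.23, adjusted p = 0.00113), and lower inside that of MB replicate 1 (-0.66, adjusted p = 0.0249). Plk2 changed by -2.36 (SE 0.24) and Bax by -0.73 (SE 0.26, adjusted p = 0.0293). The call on Bax rested on single libraries: it was lost without E15.5 replicate 3 (-0.28, adjusted p = 0.274), without MB replicate 1 (-0.63, adjusted p = 0.0859) and without MB replicate 3 (-0.77, adjusted p = 0.0513), which leaves 1 of the 24 genes lower in each case.

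Transcription factors of the granule lineage were mostly present in both groups. Of 23 listed, all tested, 9 were higher in MB, 4 were lower and 6 were bounded within 2-fold, with a median of 0.26. Beside these stand 26.1%, 24.0% and 33.3% of all genes, so the share bounded within 2-fold was not above that of genes at large. Atoh1, the proneural factor that defines the precursors, stood at 124, 138 and 124 CPM at E15.5 and at 322, 282 and 236 CPM in MB, above its mean of 47.7 CPM at P1 and 11.9 CPM at P14. It rose by 1.12 (SE 0.28, adjusted p = 0.00359), but not past the threshold inside the counting set of MB replicates 2 and 3 (0.90, adjusted p = 0.126). Nfix rose by 2.67 (SE 0.39), Barhl2 by 2.50 (SE 0.30) and Insm1 by 2.24 (SE 0.34). Zic1, Zic2, Zic4, Meis1, Nhlh2 and Etv1 were the members bounded within 2-fold.

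Neurod2 and Meis2 were the members with the largest falls. Neurod2, a factor of postmitotic neurons, stood at 263, 265 and 169.9 CPM at E15.5 and at 2.50, 2.44 and 11.7 CPM in MB, while the P14 mean was 349 CPM. Its log2 change was -5.40 (SE 0.46, adjusted p = 1.38e-06), and -6.55 without MB replicate 3. Meis2 stood at 95.04, 143 and 55.7 CPM at E15.5 and at 0.674, 0.0733 and 0 CPM in MB, a ratio of scaled counts of 375 (exact interval 243 to 615). Its paralog Meis1 had 277, 319 and 177 CPM at E15.5 and 327, 254 and 232 CPM in MB. Neurod1, with 523, 654 and 422 CPM against 573, 295 and 329.9 CPM, was not called. It was called lower without MB replicate 1 (-0.77, adjusted p = 0.0330) and inside the counting set of MB replicates 2 and 3 (-1.06, adjusted p = 0.0276).

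The factors of the rhombic lip, of the nuclei and of regional patterning were lower in MB with few exceptions. Of 17, all tested, 13 were lower in MB and 1 higher (2 higher without E15.5 replicate 1), beside 24.0% and 26.1% of all genes. The median was -4.04. Lhx9, found in the nuclear neurons that leave the rhombic lip early, stood at 119.9, 34.3 and 31.6 CPM at E15.5 and had 5 counts in all in MB, a ratio of 1089.9 (exact interval 467 to 3358). Neurog2 had 2 counts in MB against 1517 at E15.5, and Evx1 had 0 against 229, which makes it at least 95.3-fold lower. Eomes, a marker of unipolar brush cells, stood at 146, 156 and 74.5 CPM and then at 2.22, 1.20 and 1.12 CPM (-6.38, SE 0.32). Lmx1a, a factor of the rhombic lip, had 2391 counts at E15.5 and 13 in MB.

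One member of that list ran against the rest. Olig3, expressed in dorsal hindbrain progenitors, stood at 26.3, 25.6 and 25.8 CPM at E15.5 and at 88.4, 44.2 and 135 CPM in MB (1.78, SE 0.34, adjusted p = 6.31e-04). Its mean at P1, P7 and P14 was 2.05, 6.05 and 4.14 CPM, so all MB and E15.5 libraries were high for it. Lhx2 showed a like pattern with an uneven embryonic group, at 95.6, 19.1 and 18.9 CPM, against 35.0, 74.7 and 60.7 CPM in MB and means up to 3.92 CPM after birth. It was not called between MB and E15.5 (0.35, SE 0.49), except without E15.5 replicate 1, when it was higher in MB (1.58, adjusted p = 0.00123).

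Genes of the neuronal cytoskeleton and of young neurons were lower in MB. Of 18, all tested, 15 were lower and 0 higher, beside 24.0% and 26.1% of all genes, with a median of -2.39. Nefl, the light neurofilament (chr14:68701920-68707152, mm9), stood at 223, 352 and 338 CPM at E15.5 and had 11 counts over the 3 tumours, 0.238, 0.0489 and 0.120 CPM. The ratio of scaled counts was 2522 (exact interval 1409 to 5053). Its neighbour Nefm, the medium neurofilament, stood at 109, 152 and 118 CPM and at 0.555, 1.12 and 1.64 CPM (-6.83, SE 0.34, adjusted p = 6.32e-09). These 2 genes lie side by side on chromosome 14, on opposite strands, and their annotated spans overlap.

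The rest of that list changed less. Gap43, a growth cone protein, changed by -3.54 (SE 0.29), Stmn2 by -3.19 (SE 0.26) and Tubb3, the neuronal beta tubulin, by -2.55 (SE 0.35), with 3124, 2861 and 5278 CPM at E15.5 and 247, 844 and 835 CPM in MB. Crmp1, a collapsin response mediator, stayed bounded within 2-fold at 1260.0, 1301 and 1721 CPM and 1258, 1757 and 1717 CPM (0.14, interval -0.27 to 0.56). Of the genes in the 28 lists, Crmp1 alone was both bounded within 2-fold and above all postnatal libraries in all 6.

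Genes of granule neuron maturation were mixed. Of 26, all tested, 11 were lower (42.3%) and 4 higher (15.4%), beside 24.0% and 26.1% of all genes, with a median of -0.75. Syt1, the synaptic vesicle calcium sensor, stood at 403, 505 and 299 CPM at E15.5 and at 9.08, 11.8 and 14.7 CPM in MB (-5.08, SE 0.24, adjusted p = 4.21e-09). Nrxn3, a presynaptic adhesion protein, changed by -4.55 (SE 0.29) and Slc17a7, a vesicular glutamate transporter of mature granule neurons, by -3.96 (SE 0.56). The number higher was 2 without E15.5 replicate 3 and 2 and 1 inside the counting sets of MB replicate 1 and of MB replicates 2 and 3.

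Ntrk3, the receptor for neurotrophin 3, had the largest called rise of the maturation genes. It stood at 22.6, 27.1 and 18.2 CPM at E15.5 and at 248, 294 and 287 CPM in MB (3.62, SE 0.20, adjusted p = 9.07e-09), with a highest postnatal mean of 47.7 CPM. Its ligand gene Ntf3 changed by -7.01, from a mean of 37.6 CPM to 0.289 CPM. Vamp1, a vesicle fusion protein, rose by 1.44 (SE 0.33), but was not called inside the counting set of MB replicates 2 and 3 (1.21, adjusted p = 0.0957).

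Axon guidance and migration genes were lower as a group, receptors and ligands alike. Of 31, all tested, 21 were lower and 3 higher, beside 24.0% and 26.1% of all genes, with a median of -2.03. Slit1, a secreted repellent, stood at 132, 129 and 103 CPM at E15.5 and at 1.71, 0.440 and 1.28 CPM in MB (-6.77, SE 0.43, adjusted p = 8.15e-08). Robo3, the divergent Slit receptor of commissural axons, stood at 338, 189 and 295 CPM and at 0.119, 2.86 and 7.77 CPM (-6.27, SE 0.71), or -7.43 without MB replicate 3. Unc5c, a netrin receptor that keeps migrating precursors within the cerebellum, stood at 660.2, 804 and 438 CPM and at 9.004, 6.57 and 11.4 CPM (-6.14, SE 0.25).

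Of other receptors for the same ligands, Dcc and Robo1 were level. Robo2 was called lower (-0.90, and -0.44 inside the counting set of MB replicate 1). Dcc, which pairs with the Unc5 receptors in netrin sensing, stood at 444, 493 and 247 CPM at E15.5 and at 401, 397 and 391 CPM in MB (0.01, interval -0.70 to 0.71). Robo1 had 214, 207 and 141 CPM against 140.5, 250.1 and 227 CPM (0.14, interval -0.47 to 0.74). Cxcr4, the chemokine receptor that holds precursors under the meninges, rose from 109, 131 and 117 CPM to 203, 332 and 339 CPM (1.29, SE 0.24), and Ntn4, a secreted netrin, rose by 1.57 (SE 0.25). All of the Unc5 family measured, Unc5a, Unc5b, Unc5c and Unc5d, were lower, by 3.26 to 6.14 on the log2 scale in size.

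**Figure D3:**
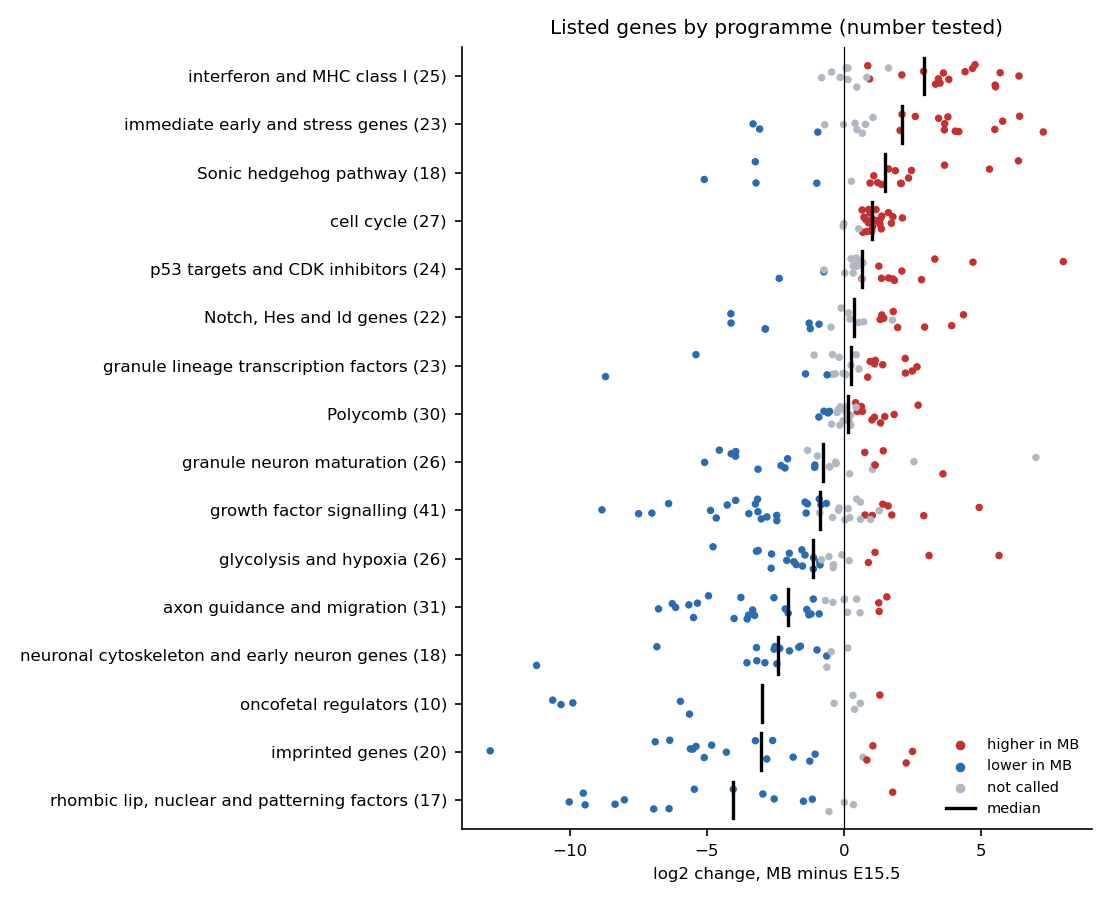
Log2 change from E15.5 to MB (x axis) of each tested gene in the 16 programme lists, with the number tested in parentheses, red for called higher, blue for called lower, grey for not called and a black bar at the list's median. Cell cycle genes sit close together near 1, the hedgehog list spreads from -5.10 to 6.37, and the rhombic lip factors have a median of -4.04, the lowest in this fit, though inside the counting set of MB replicate 1 the oncofetal list was lower (-3.46 against -3.10).

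Fetal RNA-binding proteins and regulators that many tumours re-express were lower in MB more often than higher. Of 13 oncofetal genes, 10 were tested, and 5 were lower and 1 higher, beside 24.0% and 26.1% of all genes. The number higher was 2 or 3 without E15.5 replicate 2, MB replicate 1 or MB replicate 2. Bounded within 2-fold were 2, beside 33.3% of all genes, and the median was -3.00. Igf2bp2, an RNA-binding protein that stabilises fetal growth transcripts (chr16:22059082-22163372, mm9), stood at 123, 139.8 and 97.4 CPM at E15.5 and had 8 counts in all in MB. The ratio was 1282 (exact interval 650.5 to 2971). Igf2bp1 had 6013 counts at E15.5 and 8 in MB, all of them in replicate 3, and Igf2bp3 changed by -5.64 (SE 0.33).

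Lin28b, which blocks let-7 maturation, had 1595 counts at E15.5 and 1 in MB, and Hmga2, a chromatin protein of early progenitors, had 1253 and 26. The postnatal means of Igf2bp2 were 17.0, 5.59 and 2.40 CPM at P1, P7 and P14, all above the highest tumour library at 0.120 CPM. Hmga1, the relative of Hmga2, was higher in the gene counts, at 14.7, 15.9 and 16.2 CPM against 37.8, 39.9 and 38.5 CPM (1.31, SE 0.20). In the transcript table the sign was the opposite (-0.88, adjusted p = 0.00698), so no direction is given for Hmga1, whose sequence has near-identical copies. Dnmt3b, a DNA methyltransferase, was bounded within 2-fold (-0.36, interval -0.84 to 0.12).

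Imprinted genes, of which many restrain or promote fetal growth, were lower in most cases. Of 22, 20 were tested, and 15 were lower and 4 higher, beside 24.0% and 26.1% of all genes. The median was -3.02, and 12 members had all MB libraries below all 12 others, as 1672 of all genes did (11.6%). Magel2 (chr7:69521865-69526526, mm9) stood at 36.2, 37.2 and 27.8 CPM at E15.5 and had 0 counts in every tumour, at least 971-fold lower. Ndn, its neighbour in the Prader-Willi region (chr7:69493163-69494814, mm9), stood at 547, 485 and 1059 CPM and at 14.1, 20.4 and 15.01 CPM (-5.40, SE 0.25). Grb10, an adaptor that damps insulin and IGF signalling, stood at 395, 406 and 363 CPM and at 7.497, 5.45 and 1.20 CPM (-6.36, SE 0.43).

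The same direction held along the Dlk1 to Dio3 domain on chromosome 12. Dlk1 changed by -5.10 (SE 0.70), or -7.23 without MB replicate 2, Rtl1 had 171 counts at E15.5 and 5 in MB, and Dio3 had 157 and 1. Igf2, a fetal growth factor, changed by -1.05 (SE 0.28), from 15.8, 31.7 and 18.7 CPM to 11.6, 12.2 and 7.93 CPM. Igf2 was not called inside the counting set of MB replicate 1 (-0.58, adjusted p = 0.203), and both groups were low against postnatal means of 228 to 378 CPM for it.

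The 4 higher members were Zim1, Gnas, Peg3 and Sgce, and each of these calls has limits. Inside the counting set of MB replicates 2 and 3, 1 of the 4 was called, and there Zim1 (0.38, adjusted p = 0.460), Peg3 (-0.14, adjusted p = 0.772) and Gnas (2.30, adjusted p = 0.0870) were not. Zim1 and Peg3 are neighbours on chromosome 7, and both were highest in MB replicate 1. Zim1 stood at 89.1, 19.3 and 10.1 CPM in MB and rose by 2.51 (SE 0.57), or by 1.09 without MB replicate 1. Peg3 rose by 1.06 (SE 0.38) but was not called without MB replicate 1 (0.33, adjusted p = 0.338), without E15.5 replicate 1 (1.09, adjusted p = 0.0620) or without E15.5 replicate 3 (0.77, adjusted p = 0.116). Gnas rose by 2.28 (SE 0.65) in the gene counts and changed by -0.20 (adjusted p = 0.622) in the transcript table. Sgce rose by 0.84 and was not called without MB replicate 1 (0.49, adjusted p = 0.0583), which leaves 2 members of the list higher.

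Notch pathway genes were called about as often as genes at large. Of 22, all tested, 8 were higher and 7 lower, beside 26.1% and 24.0% of all genes. The median was 0.38, and -0.61 inside the counting set of MB replicate 1, where 6 were higher and 10 lower, against 11 and 4 in the other set. The ligands Dll1 and Jag2 were lower: Dll1 stood at 61.8, 52.7 and 56.0 CPM at E15.5 and at 2.10, 4.69 and 2.92 CPM in MB (-4.12, SE 0.28), and Jag2 changed by -4.13 (SE 0.26). The ligand Dll4 was higher, by 2.95. Jag1 was called higher in the fit of all libraries (1.80, and 1.10 without MB replicate 3) but not inside the counting set of MB replicate 1 (0.01, adjusted p = 0.985). Hes1, the effector induced by Notch and also by hedgehog signalling, stood at 1.96, 1.42 and 3.39 CPM and at 18.0, 45.2 and 44.2 CPM (3.94, SE 0.36), whereas Hes6, which opposes Hes1 and promotes neuronal differentiation, changed by -2.86 (SE 0.33). Lfng, which modifies Notch receptors with sugar, rose by 4.37 (SE 0.46), or by 5.21 without E15.5 replicate 3.

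Growth factor genes were lower more often than higher. Of 41, all tested, 22 were lower and 7 higher, beside 24.0% and 26.1% of all genes, with a median of -0.88. Pdgfa, a ligand for Pdgfra, stood at 4.62, 4.43 and 3.49 CPM at E15.5 and at 66.2, 182 and 135 CPM in MB (4.94, SE 0.31, adjusted p = 5.12e-08). Fgfr3 rose by 2.92 (SE 0.35) and stood between 18.0 and 18.7 CPM in the 3 tumours. Wnt1, the midbrain and hindbrain boundary signal, had 160 counts at E15.5 and 0 in MB, at least 66.6-fold lower.

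Signals of the early hindbrain were among the lower ones. Fgf15 stood at 25.1, 18.0 and 75.4 CPM at E15.5 and at 0, 0.269 and 0.360 CPM in MB (-7.49, SE 0.74), or -6.61 without E15.5 replicate 3. Igfbp5, a carrier of insulin-like growth factors, stood at 1209, 1174 and 543 CPM and at 63.4, 19.7 and 17.1 CPM (-4.87, SE 0.45), or -5.72 without MB replicate 1.

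Polycomb genes, whose complexes write the repressive histone marks on histones H3 and H2A, held more genes bounded within 2-fold than any other programme list. Of 31, 30 were tested, Pcgf1 was not analysed here, 11 were higher, 4 were lower and 16 were bounded within 2-fold, beside 26.1%, 24.0% and 33.3% of all genes, with a median of 0.16. The calls were 8 higher and 7 lower inside the counting set of MB replicate 1 and 5 and 2 inside the other, and 5 and 1 with the replicate number as a block. Ezh2, the methyltransferase named in the title of the study, stood at 209.7, 220.2 and 244 CPM at E15.5 and at 343, 377 and 330.2 CPM in MB. Its change was 0.64 (SE 0.19, adjusted p = 0.00988), and inside the counting sets it was 0.59 (adjusted p = 0.0863) and 0.69 (adjusted p = 0.0823). Among its partners, Suz12 rose by 1.12 (SE 0.20) and Eed was bounded within 2-fold (0.04, interval -0.40 to 0.48).

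The largest changes in that list were those of Pcgf5 and Phf19. Pcgf5 stood at 2.01, 2.17 and 2.49 CPM at E15.5 and at 22.1, 11.4 and 10.6 CPM in MB (2.71, SE 0.29), and Phf19, a Polycomb-like protein that recruits the Ezh2 complex, rose by 1.84 (SE 0.27). Bmi1, a subunit of the other complex and a proto-oncogene, rose by 1.49 (SE 0.28), from 102, 105 and 107 CPM to 427, 236 and 222 CPM. Phf1, another Polycomb-like protein, changed by -0.91 (SE 0.22), and was not called inside the counting set of MB replicates 2 and 3 (-0.45, adjusted p = 0.132). Rybp changed by -0.73 (SE 0.24), and was not called inside the set of MB replicate 1 (-0.26, adjusted p = 0.486) or without E15.5 replicate 2 (-0.50, adjusted p = 0.106) or MB replicate 3 (-0.57, adjusted p = 0.0860).

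Many glycolytic genes were lower in MB, and at the first step 2 isoforms moved in opposite directions. Of 26 glycolysis and hypoxia genes, all tested, 16 were lower and 4 higher, beside 24.0% and 26.1% of all genes. The median was -1.11. Gapdh, Eno1, Ldha and Pgam1 have processed copies in the genome that can take reads, and without these 4, left out after the data were seen, 13 of 22 were lower and 3 higher, with a median of -0.997. Hk2, the hexokinase of many tumours and of dividing precursors (chr6:82675019-82724448, mm9), stood at 19.0, 18.5 and 9.45 CPM at E15.5 and at 571, 859.9 and 937 CPM in MB. Its change was 5.66 (SE 0.38, adjusted p = 1.36e-07), and its highest postnatal mean was 57.0 CPM. Hk1, which carries out the same step in most of the brain, went from 164, 195 and 171 CPM to 18.0, 33.7 and 32.3 CPM (-2.65, SE 0.26).

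Later enzymes of the pathway were mostly lower, like Hk1. The neuronal enolase Eno2 stood at 44.9, 48.3 and 56.4 CPM and at 2.10, 1.93 and 1.40 CPM (-4.78, SE 0.54), and Tpi1 stood at 295, 305 and 509.8 CPM and at 51.3, 29.3 and 41.1 CPM (-3.19, SE 0.23). Aldoc, an aldolase typical of astroglia, rose by 3.11 (SE 0.41). Slc2a1, the main glucose transporter, was bounded within 2-fold (-0.38, interval -0.92 to 0.16), though called lower inside the counting set of MB replicate 1 (-1.13, adjusted p = 0.00983).

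Antigen presentation and interferon genes were higher in MB. Of 27, 25 were tested, and 16 were higher and 0 lower, beside 26.1% and 24.0% of all genes. The number lower was 1 without E15.5 replicate 2 or MB replicate 1, and the median was 2.91. H2-D1, a class I major histocompatibility gene, stood at 0.567, 0.585 and 0.998 CPM at E15.5 and at 72.8, 57.0 and 61.8 CPM in MB (6.39, SE 0.37, adjusted p = 1.24e-08), though reads can be shared with near-identical class I genes. Of the 25, 16 had all E15.5 libraries below all 12 others, a pattern of 1834 of all genes tested (12.7%), and the highest postnatal mean of H2-D1 was 65.1 CPM. The microglial and macrophage markers, all 13 of them higher in MB, moved with this list: they summed to 11.1 to 34.6 CPM at E15.5, 67.3 to 252.4 CPM after birth and 216 to 575 CPM in MB. Their part in the result was not tested.

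Immediate early genes, induced within minutes of a stimulus, were higher in MB replicates 2 and 3 but not, in sum, in MB replicate 1. Their summed level was 1134, 1624 and 1359 CPM at E15.5 and 955, 3781 and 3657 CPM in MB. Of 23, all tested, 13 were higher and 3 lower, beside 26.1% and 24.0% of all genes, with a median of 2.12. Inside the counting set of MB replicate 1, 5 were higher and 5 lower, with a median of 0.20. Egr2 stood at 0.523, 2.42 and 0.131 CPM at E15.5 and at 8.29, 105 and 95.5 CPM in MB (6.42, SE 0.81), or 7.86 without E15.5 replicate 2, 5.71 without E15.5 replicate 3 and 7.01 without MB replicate 1. Fos stood at 6.72, 34.9 and 8.01 CPM and at 25.9, 373 and 219.8 CPM, so the groups overlapped, and it rose by 3.67 (SE 0.70), or 4.80 without E15.5 replicate 2 and 2.92 without MB replicate 2. These genes also respond to tissue handling, and the postnatal means of Fos, 526 to 1003 CPM, were above those of both groups.

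Among the genes with the largest differences over the whole table were several of immune cells. Taken by size of change among well measured genes without overlap, the 10 highest were Il1b, Lcn2, Gpnmb, Sowaha, Prm1, H2-Aa, Steap4, Itih3, Serpina3n and Tbx1. Il1b, an inflammatory cytokine of myeloid cells, had 0 counts at E15.5 and 13.7, 33.4 and 9.45 CPM in MB, at least 520.3-fold higher. Lcn2, a secreted protein of injury and inflammation, had 1 count at E15.5 and 4525 in MB. Gpnmb, a membrane glycoprotein of macrophages and of several tumours, had 3 counts at E15.5 and stood at 129.9, 83.1 and 80.7 CPM in MB. The antigen presentation gene H2-Aa had 1 count at E15.5 and 1710 in MB. The microglial and macrophage sums given above rose with these genes, and the part of those cells was not tested.

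Itih3 and Serpina3n, the latter a protease inhibitor known from reactive astrocytes, had E15.5 means of 0.0525 and 0.0877 CPM, MB means of 58.5 and 43.9 CPM and P14 means of 24.6 and 19.99 CPM. The astroglial marker sums given below were higher in MB as well, and their part was not tested. Sowaha, a protein with ankyrin repeats, stood at 0.0872, 0.167 and 0.105 CPM at E15.5 and at 148, 246 and 89.0 CPM in MB, against postnatal means of 2.99 to 11.5 CPM. The ratio of its scaled counts was 1603 (exact interval 813 to 3714). Prm1, a protamine that packs sperm DNA, had 2 counts at E15.5 and stood at 51.2, 39.3 and 41.8 CPM in MB, while no postnatal mean passed 0.0894 CPM. Tbx1, a T-box factor of pharyngeal development, had 2 counts and then 5.08, 10.9 and 30.1 CPM.

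The 10 largest differences in the other direction were Skor2, Magel2, Pax2, Optc, Tfap2b, Myh8, Msx3, Fgf3, Nefl and Cbln2. Skor2, a corepressor needed in young Purkinje cells, stood at 45.9, 48.4 and 63.6 CPM at E15.5 and had 0 counts in MB, at least 1687-fold lower. Pax2, which marks the precursors of GABAergic interneurons, stood at 139, 113 and 87.5 CPM and had 1 count in MB. Tfap2b, a factor of the GABAergic lineage, stood at 232, 210.0 and 165 CPM and had 4 counts. Fgf3 stood at 60.9, 40.5 and 185 CPM and had 3 counts, and Cbln2, a synaptic organiser, stood at 85.4, 89.4 and 79.5 CPM and had 4 counts.

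Markers of other cells were therefore summed in every library. For the counts called in each marker list, the shares over all genes were 26.1% higher and 24.0% lower. GABAergic interneuron markers, 11 genes of which 9 were lower in MB and 1 higher, summed to 1086 to 1278 CPM at E15.5 and 446 to 551 CPM in MB. Most of the tumour sum came from Lhx1, which stood at 85.3, 102 and 89.9 CPM at E15.5 and rose to 369, 318 and 372 CPM in MB (1.94, SE 0.20). The 9 lower members fell to means between 0.00814 CPM (Pax2 and Ptf1a) and 10.7 CPM (Tfap2a), the last of which came from MB replicate 3 (-3.72, and -10.77 without it). Purkinje cell markers, 11 genes of which 8 were lower and 1 higher, summed to 599 to 910 CPM at E15.5 and 135 to 258 CPM in MB. Foxp2, the most abundant of these, stood at 270.5, 322 and 405 CPM and at 123, 68.0 and 56.3 CPM. Hindbrain Hox genes, 5 tested and all lower, summed to 3.92 to 10.6 CPM at E15.5 and to at most 0.342 CPM in MB. The part of these cells in the genes that were lower in MB was not tested.

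Glial and myeloid markers moved the other way. Astroglial markers, 13 genes of which 9 were higher and 1 lower, summed to 498 to 719 CPM at E15.5, 3319 to 4249 CPM in MB and 3854 to 8885 CPM after birth. Gfap, the glial filament, stood at 1.09, 0.585 and 0.473 CPM at E15.5 and at 391, 198 and 158 CPM in MB (8.45, SE 0.61), and Apoe stood at 23.5, 18.6 and 27.9 CPM and at 1261, 702 and 685 CPM (5.24, SE 0.35). Oligodendrocyte lineage markers, 14 genes of which 7 were higher and 1 lower (0 lower without E15.5 replicate 2, MB replicate 1 or MB replicate 3), summed to 109 to 133 CPM and 743 to 1003 CPM. The higher ones included the early factors Olig1, Olig2 and Sox10 and the receptor Pdgfra, which rose by 3.74 (SE 0.32), whereas the myelin gene Mog changed by -2.60, a call lost inside both counting sets, and Mag and Cnp were not called. C1qb, a complement gene of microglia, stood at 1.79, 0.585 and 4.73 CPM and at 127, 45.7 and 40.9 CPM (4.81, SE 0.57), or 5.80 without E15.5 replicate 3 and 4.08 without MB replicate 1.

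Markers of vessels and fibroblasts were low in both groups. Endothelial markers summed to 20.1 to 47.8 CPM at E15.5 and 33.0 to 48.2 CPM in MB, against 358 to 983 CPM in the postnatal libraries. Pericyte and fibroblast markers summed to 26.3 to 45.7 CPM and 32.1 to 65.1 CPM, against 425 to 1169 CPM. Choroid plexus markers summed to 139.7 to 427 CPM and 81.9 to 368 CPM, with up to 11462 CPM after birth. Erythroid markers summed to 10.6 to 51.4 CPM and 0.754 to 6.24 CPM, and embryonic globin Hbb-y had 239 counts at E15.5 and 0 in MB. Of 10 lymphocyte markers, 2 were tested, and the higher level of Cd4 (1.64, SE 0.50) was not called inside the counting set of MB replicates 2 and 3 (0.41, adjusted p = 0.522), without MB replicate 1 (0.51, adjusted p = 0.182) or without E15.5 replicate 3 (1.52, adjusted p = 0.0543).

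**Figure D4:**
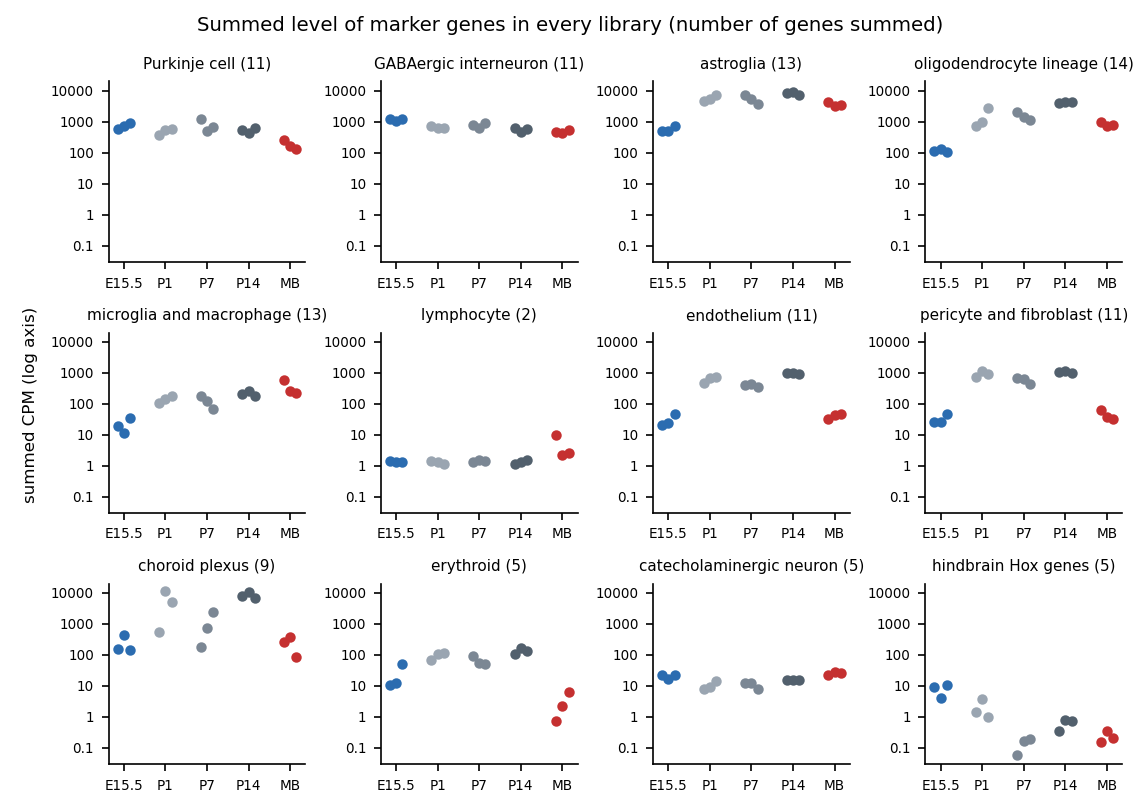
Summed CPM of the tested genes of each of 12 marker lists in every library, on a log axis, by group, with the number of genes summed in parentheses. Astroglial, oligodendrocyte lineage and microglial sums are higher in MB than at E15.5 in every library, Purkinje cell and GABAergic interneuron sums are lower, and endothelial and pericyte sums are near 20 to 65 CPM in both groups.

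What the tumour had in common with the embryo was sought among the 4813 genes bounded within 2-fold. Of all genes tested, 168 (1.16%) were bounded and also had all 6 MB and E15.5 libraries above all 9 postnatal ones, and 149 (1.03%) had all 6 below. The lower of the MB and E15.5 means was at least 2-fold above the highest postnatal group mean for 12 of the 168. For 77 of the 149, the higher of the MB and E15.5 means lay at least 2-fold below the lowest postnatal group mean. Without MB replicate 1 the sets held 420 genes high and 232 genes low in both groups. The 8 with the largest margin over the highest postnatal group mean were Ebf2, Thsd7a, Nol3, Epha3, Stc2, Bcl11a, Pbx3 and Cttnbp2.

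Ebf2, a helix-loop-helix factor of migrating neurons (chr14:67852423-68049755, mm9), had the widest margin. It stood at 159, 206 and 174 CPM at E15.5 and at 242, 136 and 85.3 CPM in MB, with a change of -0.22 (interval -0.83 to 0.39), and its means after birth were 18.0, 13.1 and 6.87 CPM. The groups overlapped, but MB replicate 1 was the highest tumour, and without it Ebf2 was called lower in MB (-0.70, adjusted p = 0.0213), as it was inside the counting set of the other 2 tumours (-0.89, adjusted p = 0.0292). Epha3, an ephrin receptor, was the steadiest of the 8, at 219.6, 257 and 214 CPM and at 178, 179 and 229 CPM (-0.24, interval -0.58 to 0.11), with postnatal means of 39.0 to 57.9 CPM.

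The transcription factor Pbx3, a partner of Meis and Hox proteins, stood at 135, 158 and 123 CPM and at 104, 145 and 145 CPM (-0.07, interval -0.51 to 0.36), against postnatal means of 31.8 to 54.9 CPM. Bcl11a, a zinc finger transcription factor, stood at 199.8, 229.6 and 199.8 CPM and at 106, 163 and 169 CPM. It was bounded within 2-fold and yet called lower (-0.52, SE 0.20, adjusted p = 0.0389), a call that was lost without E15.5 replicate 1 (adjusted p = 0.0589), E15.5 replicate 2 (adjusted p = 0.105), E15.5 replicate 3 (adjusted p = 0.0572) or MB replicate 1 (adjusted p = 0.138). Thsd7a varied widely within MB, at 59.2, 103 and 249 CPM (-0.05, and -0.81 without MB replicate 3). Nol3, an inhibitor of cell death, was lower in MB by the transcript table (-1.60, adjusted p = 5.40e-06), so its level is not given as shared.

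The 149 genes low in both groups were led by Col1a1, Col1a2, Tek and Col3a1, 3 fibrillar collagen chains and an endothelial receptor. Col3a1 stood at 6.32, 5.01 and 3.73 CPM at E15.5 and at 3.89, 7.89 and 4.36 CPM in MB, against postnatal means of 108 to 245 CPM, and Tek at 0.611, 0.919 and 1.52 CPM and at 0.833, 1.27 and 1.40 CPM, against 26.0 to 52.4 CPM. Of the 149, 7 were in the endothelial or pericyte and fibroblast lists, whose sums moved with them, and their part in this set was not tested.

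Th, tyrosine hydroxylase, the first enzyme of catecholamine synthesis, was present in both groups and nearly absent after birth. It stood at 10.3, 6.10 and 12.3 CPM at E15.5 and at 12.1, 20.6 and 18.1 CPM in MB, and its postnatal means were 0.143, 0.127 and 0.306 CPM. The difference between MB and E15.5 was 0.82 (SE 0.31, adjusted p = 0.0390), and the call was lost without E15.5 replicate 1 (0.87, adjusted p = 0.0704), E15.5 replicate 2 (0.58, adjusted p = 0.147), MB replicate 2 (0.65, adjusted p = 0.138) or MB replicate 3 (0.77, adjusted p = 0.0878), and inside the counting set of MB replicate 1 (0.10, adjusted p = 0.835).

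**Figure D5:**
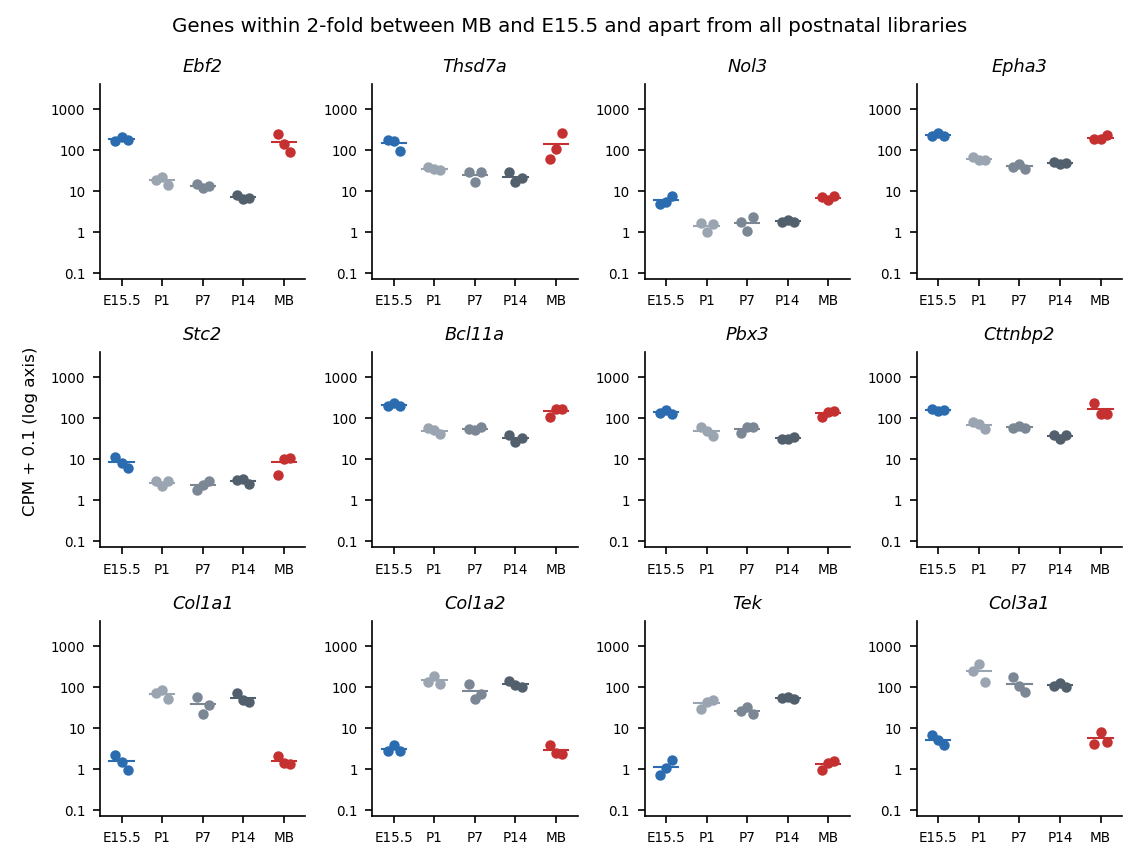
Level of 12 genes that were bounded within 2-fold between MB and E15.5, as CPM plus 0.1 on a log axis, in each of the 15 libraries by group, with a line at the group mean. The first 8 lie higher in all MB and E15.5 libraries than in all postnatal ones, the last 4 lie lower, and the within-group spread of Thsd7a and Ebf2 in MB is wider than that of Epha3.

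Other genes set 1 group apart from all the rest. All MB libraries lay above the other 12 for 1246 genes and all E15.5 libraries did so for 1624 (11.2%). Genes already named above for the size of their change, Prm1 among them, were left aside. By ratio to the highest other group mean, those then named on the tumour side were Tecta, Krt12, Cdkn2a and Fcgbp. Tecta, a matrix protein of the inner ear, stood at 0.785, 0.752 and 0.709 CPM at E15.5 and at 899, 31.1 and 43.5 CPM in MB, so 1 tumour far exceeded the others (8.76, SE 1.03, and 5.64 without MB replicate 1). Krt12, a corneal keratin, was likewise highest in MB replicate 1, at 101, 1.10 and 4.16 CPM (8.06, and 4.30 without MB replicate 1).

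On the embryonic side the genes named by the same rule were Lamp5, Robo3, Meis2, Lhx9 and Sst. Sst, the neuropeptide somatostatin, stood at 72.8, 63.0 and 119 CPM at E15.5, at 0, 0.220 and 0.360 CPM in MB and at no more than a mean of 4.35 CPM after birth (-8.73, SE 0.63). Lamp5, a neuronal membrane protein, stood at 33.0, 22.3 and 56.9 CPM and at 0.278, 0.220 and 0.280 CPM (-7.17, SE 0.46). Of the oncofetal list, 5 of the 10 genes tested had all E15.5 libraries above the other 12, as did 13 of the 18 genes of the neuronal cytoskeleton list and 7 of the 17 rhombic lip factors.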

How the data were processed

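Libraries were made from poly(A) RNA with TruSeq v2 reagents after Percoll, Trizol and DNase steps, per the labels' protocols. Per the submitters' processing notes, Trimmomatic, TopHat, StringTie and HTSeq were used with build mm9. Versions and the strand setting are not given in the sources used here, so a gene and an antisense neighbour cannot be told apart. The authors deposited raw counts, unnormalized, per gene (21889 genes, the main table), per transcript and per start site model. Summary lines that name no gene were left out, and 39.5% to 55.4% of records lay in genes. Symbols were matched for 20358 genes, 19524 of them autosomal.

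Counts were fitted with edgeR 4.0.16 in R 4.3.3 on all 15 libraries, with filterByExpr (minimum count 10, minimum total 15, 15259 genes kept), TMM scaling, 1 mean per group and 10 residual degrees of freedom. The quasi-likelihood F-test was adjusted by the Benjamini-Hochberg method over all 15259 genes, and the script was tested on simulated data. DESeq2 1.42.0 was an alternative, beside other scalings, filters, tables, sets of libraries and leaving out each replicate. The authors' counts were scaled to CPM here. A fold against 0 counts takes 3 counts over the group as its floor, and ratios of scaled counts have an exact 95% interval. Both cover counting error only.

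The 2 counting sets were told apart by Tsnax, whose gene count was at most 0.273% or at least 92.4% of its transcript count. Genes were named by rule: the 10 largest changes in each direction (mean of at least 5 CPM over the 6 libraries, no overlap, 2-fold in the transcript table as well), 8 genes shared high and 4 shared low, 5 high in 1 group alone, the 2 largest called changes per programme list and direction, the 2 most abundant per marker list, and Ptch1, Gli1, Atoh1, Ezh2, Mki67 and Igf2. Other genes were named after their values were seen. The comparison, the lists, the rule and the motifs were chosen with earlier results of these data known. A few genes that the rule or the lists hold are not reported here.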

Additional observations from a re-analysis of the deposited data

How the results depend on the processing

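Of the 102 named genes that were called, with Bcl11a left aside as a shared gene, 83 kept their direction and their call under every one of the 18 alternatives that could give a value, and 17 lost the call under at least 1. Of the 28 list medians, 22 kept their sign under all of them. Signs of called genes given by value here were compared across the transcript table, the counting sets, the block and each library left out. They turned for Gnas (-0.20) and Hmga1 (-0.88) in the transcript table. Inside the set of MB replicates 2 and 3 they turned for Bax (0.015) and Peg3 (-0.14). Inside that of MB replicate 1 they turned for Btg2 (-1.17), E2f1 (-0.34) and Plk1 (-0.007). The cause was not tested. Leaving out 1 library gave 3373 to 3699 genes higher, 3019 to 3545 lower and 3955 to 5159 bounded within 2-fold. It gave 1266 to 1975 genes with all MB libraries above the rest, 1716 to 2152 below, 1665 to 2083 with all E15.5 libraries above and 1904 to 2209 below. Shared high genes numbered 154 to 420 and shared low genes 127 to 232, both highest without MB replicate 1. With fewer libraries to compare, the set of MB replicate 1 alone gave 3528 genes with MB above and 3853 below, 2560 with E15.5 above, 2653 bounded within 2-fold and 333 shared high. The other set gave 2658, 2533 and 2618, then 3199 with E15.5 below and 494 shared high. MB and E15.5 fitted alone, without the postnatal libraries and without a block, gave 2569 genes higher and 2519 lower. That fit gave 3476 genes bounded within 2-fold and 79 shared low genes. The fit of all libraries gave 3774, 3470, 4813 and 149.

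With the replicate number as a block in a fit of MB and E15.5 alone, 2520 genes were higher, 2647 lower, 3152 bounded within 2-fold and 54 shared low. Deviations of libraries with the same number had correlations of -0.022, -0.077 and -0.004, and not every library went best with its own number. With 3 libraries in each group, these values cannot show whether libraries with the same number were prepared together.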
